A study of Mus musculus with 42 samples.

Results

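Dense clusters of β-catenin sites were places in the mouse genome where 3 or more β-catenin regions lay close together. They were selected on the peak lists of the 3 wild-type (WT) β-catenin libraries with CHIR99021. The 20000 best peaks of each list were merged where they overlapped, which gave 44557 regions. Of these, 9658 regions were called in at least 2 of the 3 lists, and 5210 were called in all 3. Regions separated by no more than 12500 bp were joined into 8106 stitched domains. Of these domains, 267 (3.29%) held 3 or more regions and are called dense domains. They contained 957 of the 9658 regions (9.91%), called clustered regions, and the remaining 8701 regions lay in domains of 1 or 2 regions. Because the WT β-catenin lists chose the domains, their values in those lists are given as a description, and no test compares them with the mutants.

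The lists came from ChIP–seq, in which DNA bound by a protein is pulled down with an antibody and sequenced. The WT cells were HM1 TetON mouse embryonic stem cells of 129 background, from which the mutant lines were derived. Mutant cells were Cdx1/2/4-/- (CdxKO) or T/Bra-/- (T/BraKO). Cells of all groups were differentiated towards epiblast-like cells in N2B27 medium with bFGF and LGK974, a porcupine inhibitor that keeps cells from secreting WNT, up to collection at 72 h. For the last part of the culture, cells either received CHIR99021 (CHIR), which activates WNT signalling within the cell by inhibiting GSK3, or did not (noCHIR). With CHIR, libraries of β-catenin, LEF1 and SOX2 were made from all 3 genotypes, and WT noCHIR cells were used for SOX2 alone. This gave 10 groups of 3 biological replicates, whereas the 12 input samples of the 42 samples were not analysed here. Genotype and cell line cannot be told apart, and the sources used here do not say how many clones stand for a genotype. The labelled cell type could not be checked against marker genes, because peak lists hold no expression.

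β-catenin is the transcriptional effector of canonical WNT signalling. It does not bind DNA by itself but is brought to chromatin by factors of the TCF/LEF family, of which LEF1 is a member. SOX2 acts in pluripotent cells and neural progenitors, CDX factors pattern the trunk and tail partly through the Hox genes, and T (Brachyury) is a T-box factor of the primitive streak. In the caudal epiblast, WNT signalling maintains progenitors of the spinal cord and the paraxial mesoderm.

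Each list was called by the authors in 1 library. The lists held 26940 to 1008922 peaks and gave no read totals, so depth is unknown and the 20000 best peaks of each list were compared. A region was counted as called in a library when 1 of these peaks overlapped it, and as called in a group when at least 2 of 3 libraries called it. WT SOX2 replicate 3 stood apart from the other libraries of its group. It called 515 of the clustered regions, against 318 in replicate 1 and 291 in replicate 2.

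The strongest region of 7 dense domains is given as the window around its WT summit, to let the letters at the sites be read beside the calls. The windows are from the plus strand of GRCm38 (mm10), the build of the lists. Capitals mark the letters that were searched on both strands: CTTTGAA or CTTTGAT for TCF/LEF, CCATTGT or CCTTTGT for SOX, CAATAAA or CCATAAA or TAATAAA or TCATAAA for CDX, and AGGTGTGA for T-box. Occurrences of different motifs could overlap, and a match is a description, not a bound site. The first 3 windows belong to genes of the caudal epiblast and primitive streak.
T (chr17:8389119-8389319): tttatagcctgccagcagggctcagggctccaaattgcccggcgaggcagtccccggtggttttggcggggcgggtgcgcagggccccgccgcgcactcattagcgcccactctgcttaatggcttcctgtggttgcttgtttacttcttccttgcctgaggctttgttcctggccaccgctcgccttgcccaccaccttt
Cdx2 (chr5:147304335-147304535): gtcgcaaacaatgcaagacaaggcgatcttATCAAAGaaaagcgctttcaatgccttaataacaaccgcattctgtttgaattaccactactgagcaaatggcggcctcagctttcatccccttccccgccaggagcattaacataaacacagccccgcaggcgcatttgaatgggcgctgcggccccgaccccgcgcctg
Fgf8 (chr19:45722951-45723151): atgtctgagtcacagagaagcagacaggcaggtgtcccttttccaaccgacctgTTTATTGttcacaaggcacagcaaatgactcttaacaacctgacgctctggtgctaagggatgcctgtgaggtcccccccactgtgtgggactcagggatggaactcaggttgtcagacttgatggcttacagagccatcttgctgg

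The T window held none of the searched letters. It was the second of 9 regions in the domain of T, lay over the gene T2 within 1000 bp of the start of a noncoding transcript, and was called in 9 of 9 β-catenin lists. The Cdx2 window lay in an intron of Cdx2, held TCF/LEF letters and was called in all 30 lists. It was 1 of 14 such regions among the 957 clustered regions (1.46%, against 0.770% of the other regions and 0.839% of all). The intergenic Fgf8 window lay 19864 bp from the start of Fgf8 and held CDX letters. It was called by β-catenin in 3 of 3 CdxKO lists and 0 of 3 T/BraKO lists. The next 3 windows belong to Nodal (a TGFβ ligand), Sall4 (a zinc-finger factor of pluripotent cells) and Axin2 (a feedback inhibitor of WNT signalling).
Nodal (chr10:61406092-61406292): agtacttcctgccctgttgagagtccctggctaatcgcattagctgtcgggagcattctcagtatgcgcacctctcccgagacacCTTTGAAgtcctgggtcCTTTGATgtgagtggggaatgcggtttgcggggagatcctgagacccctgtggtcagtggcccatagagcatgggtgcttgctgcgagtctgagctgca
Sall4 (chr2:168780147-168780347): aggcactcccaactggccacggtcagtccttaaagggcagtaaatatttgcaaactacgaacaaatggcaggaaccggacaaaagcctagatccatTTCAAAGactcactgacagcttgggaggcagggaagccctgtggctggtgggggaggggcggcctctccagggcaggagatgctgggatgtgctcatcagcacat
Axin2 (chr11:108921136-108921336): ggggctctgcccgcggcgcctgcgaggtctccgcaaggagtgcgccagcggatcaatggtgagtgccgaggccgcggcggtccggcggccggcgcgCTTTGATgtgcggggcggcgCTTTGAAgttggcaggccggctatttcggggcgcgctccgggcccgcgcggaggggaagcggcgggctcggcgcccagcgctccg

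The Nodal and Axin2 windows each held 2 TCF/LEF matches, and the Sall4 window held 1. All 3 windows were called in 9 of 9 β-catenin lists, and the Nodal and Axin2 windows also in 9 of 9 LEF1 lists. The Nodal and Sall4 windows were intergenic, 11780 and 12304 bp from the starts of their genes, and the Axin2 window was 887 bp from the start of Axin2, within the gene. The last window comes from a Hox cluster.
Hoxb9/Hoxb8 (chr11:96272001-96272201): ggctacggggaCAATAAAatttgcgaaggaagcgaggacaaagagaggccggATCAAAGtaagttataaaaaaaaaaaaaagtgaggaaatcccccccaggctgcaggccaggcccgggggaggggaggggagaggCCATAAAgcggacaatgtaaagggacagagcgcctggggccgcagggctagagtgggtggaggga

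The Hoxb9/Hoxb8 window held 2 CDX matches and 1 TCF/LEF match. It lay 644 bp from the start of Hoxb9, within that gene. β-catenin was called there in 3 of 3 T/BraKO lists and in 1 of 3 CdxKO lists.

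Most dense domains were just inside the limit. There were 180 domains with 3 regions and 55 with 4, against 862 with 2 regions just outside it. A further 14 domains held 5 regions, 9 held 6 and 5 held 7. The largest held 8, 9, 10 and 11 regions, 1 domain each. The dense domains had a median width of 12338 bp (range 2156 to 59501 bp), with a median gap of 3205 bp between neighbouring regions. A protein-coding gene started inside 119 of them, and 148 held no such start. Domains of the latter kind are named as near the gene with the closest coding start, at whatever distance. In 32 dense domains this start was over 100 kb away. Examples are those near Irx3 (263517 bp), Fancc (207464 bp), Dusp6 (187963 bp) and Cpa6 (115634 bp). Chromosome 11 held 39 dense domains and the X chromosome 2.

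Clustered regions lay nearer to genes than the others. Their median distance to an annotated transcription start, coding or noncoding, was 4716 bp, against 11943 bp for the other regions. A promoter summit, meaning one no more than 1000 bp from such a start, was present in 22.9% against 15.3%. Clustered regions had a median width of 554 bp (others 436 bp) and a GC content of 52.7% (others 49.3%). In the WT lists that chose them, 62.1% were called in 3 of 3 lists, against 53.1% of the others. TCF/LEF letters stood within 100 bp of 38.6% of clustered summits and 43.4% of the others (43.0% of all regions). In the same windows moved by 1000 bp the shares were 7.21% and 8.09%. SOX letters were at 14.1% and 14.5% of summits (14.5% of all; 6.69% and 6.93% when moved), and T-box letters at 1.46% and 1.98% (1.93% of all; 1.36% and 0.885% when moved). CDX letters were at 16.9% of clustered and 13.4% of other summits (13.8% of all), against 13.0% and 17.1% in the moved windows.

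Among the genes within 10000 bp of a dense domain, which were 338 of 21911 protein-coding genes (1.54%), those of the WNT pathway were frequent. Of 20 WNT feedback and target genes, 11 lay at a dense domain. These were the inhibitors Axin2, Nkd1 and Notum, the ubiquitin ligases Rnf43 and Znrf3 that remove Frizzled receptors from the membrane, the receptor Fzd10, the transcription factors Lef1, Tcf7, Sp5 and Sp8, and Tnfrsf19. Of 8 WNT ligands, 4 did (Wnt5b, Wnt6, Wnt8a and Wnt10a). Among 13 genes of the TCF/LEF family and the β-catenin complex, Tcf7l1, Tcf7l2, Bcl9l and the co-repressor gene Tle3 did. The lists were chosen with earlier results of these data known, so these counts are a description.

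Developmental genes formed the other named group. Of 15 caudal epiblast and neuromesodermal genes, 6 lay at a dense domain (T, Cdx2, Nkx1-2, Sox2, Fgf8 and Grsf1), as did 3 of 12 primitive streak genes (Eomes, Foxa2 and Lhx1) and 1 of 12 paraxial mesoderm genes (Dll3). The NODAL and BMP list had 4 of 16 (Nodal, Bmp7, Smad7 and Id3) and the FGF list 3 of 12 (Fgf4, Fgf15 and Fgfr2). Pluripotency genes had 4 of 18 (Pou5f1, Sall4, Lin28a and Zic2), neural genes 4 of 15 (Pax3, Pax7, Gbx2 and Otx1) and Hox cofactors 1 of 6 (Meis2). Of the 39 Hox genes, which specify position along the body axis, 22 lay at 7 dense domains with 40 regions. The 6 domains drawn in the maps come from these lists. In all, 67 of 186 listed genes lay at 52 of the 267 dense domains.

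**Figure D1:**
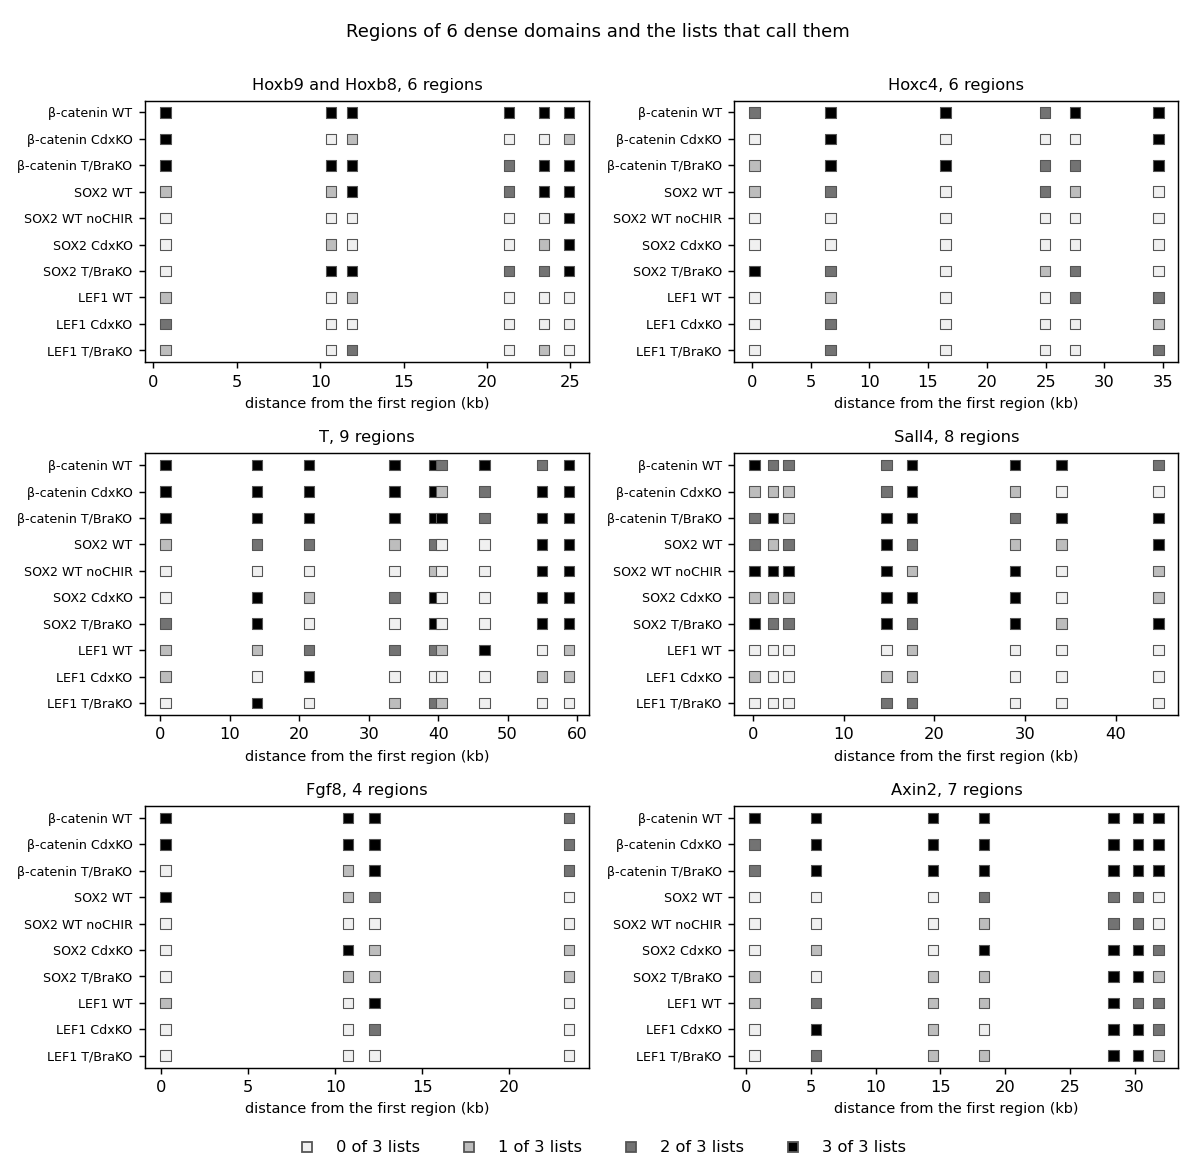
Regions of 6 dense domains by distance from the first region of the domain (kb, horizontal axis), with 1 row per group and 1 square per region. The shade of a square, from white to black, gives in how many of the 3 lists the region was called. At Sall4, 2 of 8 regions were called by β-catenin in at least 2 of 3 CdxKO lists and 7 in T/BraKO, and at Axin2 all 7 were in both.

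β-catenin was called more often at clustered than at other regions in T/BraKO, and by a smaller margin in CdxKO. In T/BraKO, the 3 libraries called 82.8%, 76.5% and 82.8% of the clustered regions and 72.7%, 67.1% and 73.1% of the others. In CdxKO they called 71.2%, 68.2% and 67.4% of the clustered regions and 68.3%, 67.7% and 62.9% of the others. The 3 T/BraKO libraries thus lay above the 3 CdxKO libraries at clustered regions, while at the other regions the ranges overlapped. In at least 2 of 3 libraries, 82.5% of clustered regions were called in T/BraKO (73.5% of all 9658 regions) and 69.5% in CdxKO (68.2% of all). When the comparison was held to regions called in all 3 WT lists, 83.8% of clustered and 85.5% of other regions were called in CdxKO, so that the small difference there changed sign. In T/BraKO the shares were then 91.6% and 84.4%.

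**Figure D2:**
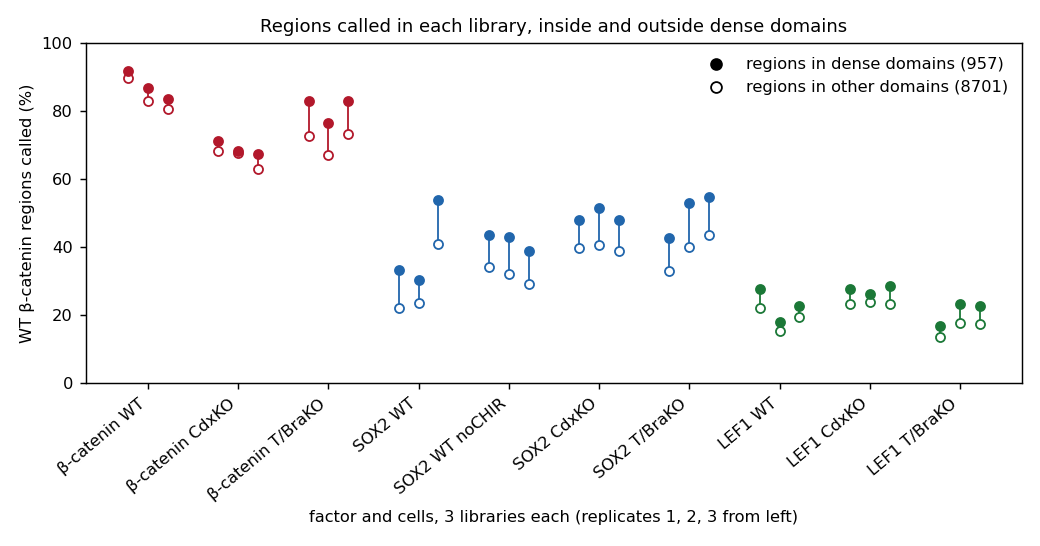
Percent of the WT β-catenin regions called in each library (vertical axis) for 10 groups of 3 libraries (horizontal axis). Filled points are clustered regions and open points are the others. The 3 WT β-catenin libraries chose the regions, so their points are a description only. In every library of the other groups, clustered regions were above the others. The gap ran from 0.495 percentage points in CdxKO β-catenin replicate 2 up to 13.1 points in T/BraKO SOX2 replicate 2.

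The share called in T/BraKO followed the size of the domain. It was 71.9% for domains of 1 region, 75.2% for 2, 80.6% for 3, 82.7% for 4 and 87.8% for 5 or more. In CdxKO the corresponding shares were 68.0%, 68.3%, 70.0%, 73.6% and 63.5%, without such an order. The CdxKO libraries called 64.0%, 65.0% and 60.9% in domains of 5 or more regions and 68.3%, 67.5% and 62.7% in domains of 1 region, and these ranges overlapped. SOX2 in WT CHIR was called at 25.0%, 30.0%, 34.6%, 39.5% and 37.1% of regions in the same order of domain size, and LEF1 in WT at 14.9%, 15.1%, 18.0%, 17.3% and 18.8%.

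**Figure D3:**
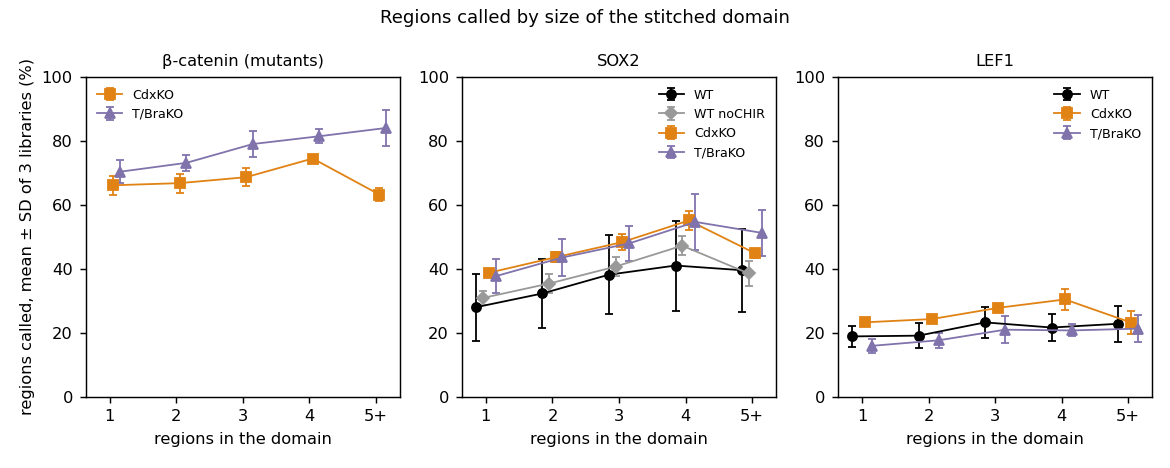
Percent of WT β-catenin regions called (vertical axis, mean ± SD of 3 libraries) by the number of regions in the domain (horizontal axis), with 1 panel per factor and 1 line per group. In domains of 5 or more regions the β-catenin libraries called 88.8%, 77.7% and 85.8% in T/BraKO and 64.0%, 65.0% and 60.9% in CdxKO.

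Seen by region, 596 of the 957 clustered regions (62.3%) were called by β-catenin in both mutants, 194 (20.3%) in T/BraKO alone, 69 (7.21%) in CdxKO alone and 98 (10.2%) in neither. Among the other regions, 55.2% were called in both, 17.3% in T/BraKO alone, 12.8% in CdxKO alone and 14.7% in neither. Seen by domain, all regions were called in 138 dense domains (51.7%) in T/BraKO and in 86 (32.2%) in CdxKO, and in 62 of these in both. Of the domains of 1 region, 71.9% in T/BraKO and 68.0% in CdxKO had that region called. Such shares depend on how many regions a domain holds, so they do not set dense domains apart. No region was called in 2 domains in T/BraKO and in 7 in CdxKO. At least 3 regions, the number that defines a dense domain, were called in 172 domains in T/BraKO and 128 in CdxKO. A lower share of the domain's regions was called in CdxKO than in T/BraKO in 111 domains, the reverse held in 38, and the shares were equal in 118. Domains of 1 or 2 regions were not split in this way, so these counts do not set dense domains apart. Over all 9658 regions the share called was also lower in CdxKO (68.2%) than in T/BraKO (73.5%).

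**Figure D4:**
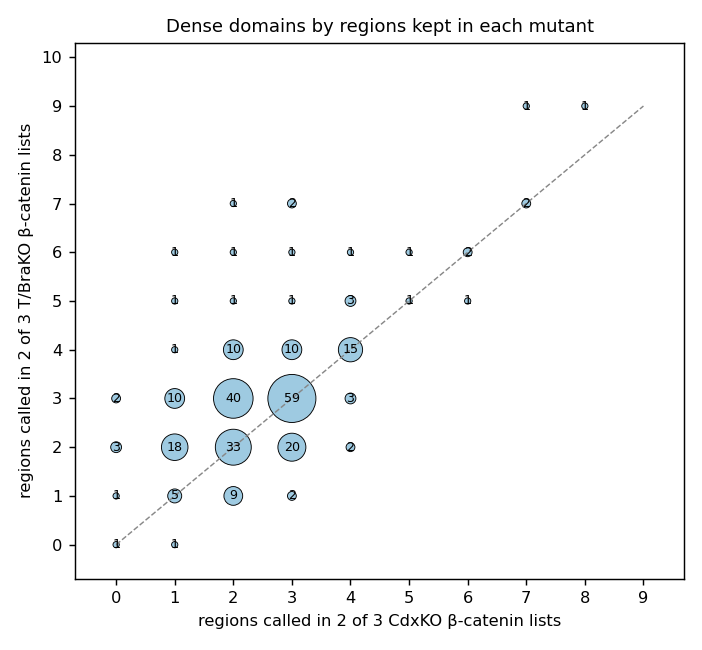
Dense domains by the number of their regions called in at least 2 of 3 CdxKO (horizontal axis) and T/BraKO (vertical axis) β-catenin lists. The area and the number of a circle give the domains at that position, and the dashed line marks equal numbers. More domains lie above the line, with fewer regions called in CdxKO (111), than under it (38).

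CDX letters went with the calls in CdxKO. Of the 162 clustered regions with CDX letters, 46.3% were called by β-catenin in CdxKO (46.9%, 46.9% and 45.1% in the 3 libraries), against 74.2% of the 795 without them (76.1%, 72.6% and 71.9%). In T/BraKO the shares were 80.2% with and 83.0% without CDX letters. The same difference was present outside the dense domains, where 43.9% of regions with CDX letters and 71.8% of those without were called in CdxKO. Of the 194 clustered regions called in T/BraKO alone, 64 (33.0%) held CDX letters, against 66 of the 596 called in both mutants (11.1%).

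At the Hox domains, β-catenin was called at fewer regions in CdxKO than in T/BraKO. Of their 40 regions, 37, 34 and 40 were called in the WT β-catenin lists, 38, 30 and 33 in T/BraKO, and 17, 19 and 23 in CdxKO, so that no CdxKO library reached the T/BraKO range. With the complete lists, 24 of the 40 were called in at least 2 of 3 CdxKO libraries and 39 in T/BraKO. CDX letters stood at 19 of the 40 summits and TCF/LEF letters at 14. At Hoxb9/Hoxb8 (chr11:96260386-96285710), WT lists called 6, 6 and 6 of 6 regions, T/BraKO lists 6, 5 and 6, and CdxKO lists 2, 2 and 1. At Hoxc4 (chr15:103007887-103042821), the counts of 6 regions were 6, 4 and 6 in WT, 6, 4 and 4 in T/BraKO and 2, 2 and 2 in CdxKO.

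Not every Hox domain had this pattern. At Hoxb2/Hoxb1 (chr11:96349856-96375190), which holds the anterior genes of the cluster, CdxKO lists called 7, 6 and 7 of 7 regions and T/BraKO lists 7, 6 and 7. At Hoxb4/Hoxb3 all 4 regions were called in each T/BraKO list, against 1, 2 and 4 in CdxKO, and these ranges touched. Near Hoxc11, CdxKO lists called 2, 2 and 1 of 3 regions and T/BraKO lists 3, 2 and 3. At Hoxd3 and Hoxd4 the counts of 3 regions were 0, 1 and 2 in CdxKO and 2, 2 and 1 in T/BraKO.

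At WNT feedback and target genes, 39 of 51 regions (76.5%) were called by β-catenin in at least 2 of 3 CdxKO libraries and 44 (86.3%) in T/BraKO. The 3 libraries called 36, 39 and 41 regions in CdxKO and 43, 41 and 44 in T/BraKO, so that the ranges met at 41. In the complete lists, 45 and 48 were called. At Axin2 (chr11:108892505-108924801), WT lists called 7, 7 and 7 of 7 regions, CdxKO lists 6, 7 and 7 and T/BraKO lists 6, 7 and 7. At Lef1, CdxKO lists called 3, 4 and 5 of 5 regions and T/BraKO lists 4, 4 and 4. At Wnt6/Wnt10a, CdxKO lists called 4, 5 and 5 of 6 regions and T/BraKO lists 5, 5 and 6. The domains of Wnt8a, Tcf7, Sp8, Fzd10, Tle3, Tnfrsf19 and Tcf7l1 had 2 or more of their regions called in at least 2 of 3 libraries of each mutant. At the domain of Rnf43, CdxKO lists called 2, 2 and 2 of 4 regions and T/BraKO lists 4, 3 and 3, without overlap. The domain of Notum, which spans 6 gene starts from Sirt7 to Aspscr1, had 2, 4 and 4 of 7 regions called in CdxKO and 6, 3 and 7 in T/BraKO, and these ranges overlapped.

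Genes of the caudal epiblast had 23 of 28 regions called in CdxKO and 23 of 28 in T/BraKO. T itself lay in the widest dense domain (chr17:8375164-8434664, 9 regions), where WT lists called 9, 7 and 9 regions, CdxKO lists 8, 7 and 9, and T/BraKO lists 9, 8 and 9. At Cdx2 (chr5:147299461-147316029), WT lists called 5, 4 and 4 of 5 regions, CdxKO lists 4, 4 and 3 and T/BraKO lists 4, 4 and 5. The ranges of the 3 genotypes overlapped at T and at Cdx2, also in the lines mutant for these genes. Fgf8, a growth factor of the caudal epiblast, stood on the other side. Its domain (chr19:45722756-45746302) had 4, 4 and 3 of 4 regions called in WT, 4, 3 and 4 in CdxKO, and 2, 2 and 2 in T/BraKO. With the complete lists, at least 2 of 3 libraries called 4 regions in CdxKO and 3 in T/BraKO.

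At pluripotency genes, 8 of 17 regions were called in CdxKO and 15 in T/BraKO among the best peaks. With the complete lists the counts were 13 and 15, so that most of this gap was not present there. At Sall4 (chr2:168762477-168807385), WT lists called 8, 5 and 7 of 8 regions, T/BraKO lists 6, 7 and 7, and CdxKO lists 4, 3 and 2. At Pax7, a gene of dorsal neural progenitors and muscle, the counts of 7 regions were 7, 5 and 7 in WT, 6, 5 and 7 in T/BraKO, and 4, 4 and 2 in CdxKO. The mutants did not overlap at Sall4 or Pax7. Over the complete lists, at least 2 of 3 CdxKO libraries called 5 of 8 regions at Sall4 and 5 of 7 at Pax7, against 7 and 7 in T/BraKO. The Pald1/Nodal domain (chr10:61382105-61418410) had 9, 8 and 7 of 10 regions called in WT, 9, 9 and 8 in T/BraKO and 9, 5 and 6 in CdxKO, so that the mutants overlapped there. Zmynd8, Bmp7, Otx1, Id3 and Sox2 also had overlapping mutants. Among the best peaks, more of their regions were called in at least 2 of 3 libraries in T/BraKO than in CdxKO in all 5. With the complete lists, T/BraKO and CdxKO had 9 and 10 regions at Pald1/Nodal, 6 and 7 at Zmynd8, 4 and 4 at Bmp7, and 3 and 3 at Otx1. At Id3 and at Sox2 they had 4 and 3.

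The remaining lists had few regions. β-catenin was called in CdxKO and in T/BraKO, respectively, at 12 and 19 of 21 regions of the NODAL and BMP list, 9 and 14 of 17 of the neural list, 8 and 9 of 12 of the FGF list, and 7 and 6 of 9 of the primitive streak list. With the complete lists, the NODAL and BMP counts became 19 and 20, the neural counts 14 and 15, and the FGF counts 12 and 10. For WNT ligands the counts were 10 and 13 of 13, for the TCF/LEF family and complex 11 and 12 of 16, for paraxial mesoderm 3 and 3 of 3, and for Hox cofactors 3 and 2 of 3. At the 215 dense domains without a listed gene, 70.7% of 730 regions were called in CdxKO and 81.9% in T/BraKO, so the difference between the mutants was also present away from the named genes.

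**Figure D5:**
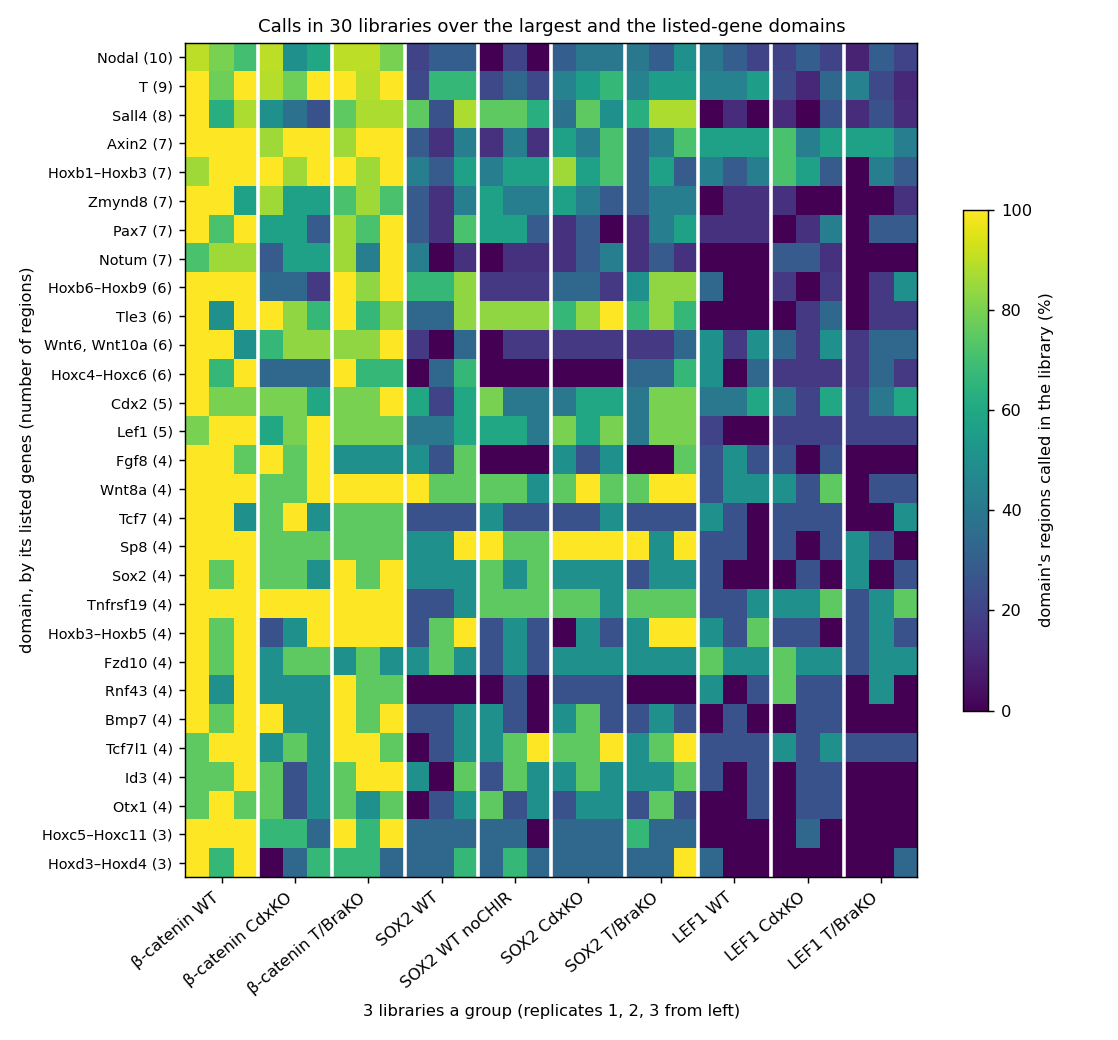
Percent of the regions of 29 named dense domains (rows, with the number of regions in parentheses) called in each of the 30 libraries (columns, 3 per group), on a colour scale from 0 to 100%. For β-catenin the rows of Hoxb6 to Hoxb9 and Hoxc4 to Hoxc6 are dark in CdxKO, with 2, 2 and 1 and with 2, 2 and 2 of 6 regions called.

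The dense domains with the lowest shares in each mutant had 3 regions. In CdxKO, 7 domains had 0 regions called in at least 2 of 3 libraries, of which 3 are given. Near Zfp958, CdxKO lists called 0, 0 and 0 of 3 regions and T/BraKO lists 2, 3 and 3. Near Fancc, the counts were 0, 0 and 0 against 2, 1 and 3, and at Gpatch1 they were 0, 0 and 2 against 2, 2 and 2. When complete lists were compared, at least 2 of 3 CdxKO libraries called 0 regions near Zfp958 and near Fancc and 2 at Gpatch1. In T/BraKO, the 2 domains with 0 regions called were Cdk12 (1, 0 and 0 regions in the lists; CdxKO 1, 1 and 2) and Cdc20b/Gpx8 (0, 1 and 2; CdxKO 0, 0 and 1), and the latter was thus low in both mutants. A further 17 domains had 1 region called, among them the one near Zfp963 (1, 2 and 0; CdxKO 3, 1 and 3). With the complete T/BraKO lists, 1 region was called at Cdk12, 3 at Cdc20b/Gpx8 and 1 near Zfp963.

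CdxKO and T/BraKO were compared domain by domain with two-sided exact permutation tests on the number of regions called per library. With 3 against 3 libraries there are 20 assignments and p cannot go below 0.1, so no domain could pass a threshold of 0.05, and after Benjamini-Hochberg adjustment over 8106 domains the adjusted exact p was 1 for every dense domain. The counts did not overlap between the mutants in 36 of 267 dense domains. T/BraKO was higher in 28 of them (10.5%, against 4.86% of all domains) and CdxKO in 8 (3.00%, against 4.93%). A domain with 1 region can take only the values 0 and 1, so the share over all domains is set mostly by such domains. Among the domains higher in CdxKO, the widest gap was near Cdan1 (mean 2.33 regions in CdxKO and 0.67 in T/BraKO), in a tie with Fgf8 and 1 other domain.

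SOX2 was called at more clustered than other regions in every library of its 4 groups. In WT CHIR, the 3 libraries called 33.2%, 30.4% and 53.8% of clustered regions and 22.0%, 23.5% and 41.1% of the others. In WT noCHIR they called 43.6%, 42.8% and 39.0% of the clustered regions, in CdxKO 48.1%, 51.5% and 48.1%, and in T/BraKO 42.6%, 53.1% and 54.9%. Among the best peaks, the WT CHIR libraries overlapped each of the other groups only through replicate 3. Replicates 1 and 2 lay under every library of those groups. In at least 2 of 3 libraries, 36.3% of clustered and 26.0% of other regions were called in WT CHIR (27.0% of all), 40.4% and 30.9% in noCHIR (31.8% of all), 48.4% and 38.1% in CdxKO (39.1% of all) and 49.8% and 37.5% in T/BraKO (38.7% of all). Without WT replicate 3, 19.5% of clustered and 12.9% of other regions were called in both remaining WT CHIR libraries. The order of the groups did not hold with the complete lists. The WT CHIR libraries then called 78.5%, 62.6% and 79.2% of clustered regions, and the noCHIR libraries 64.4%, 62.6% and 66.2%. The CdxKO libraries called 72.2%, 69.1% and 70.8%, and the T/BraKO libraries 70.7%, 72.9% and 58.9%.

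A domain with more regions has more chances to hold a SOX2 call, and in WT CHIR 25.0% of the 6977 domains of 1 region held one. Of the 267 dense domains, 200 (74.9%) had at least 1 SOX2 region, and 17 (6.37%) had SOX2 at all of their regions. Among the latter were Sp5, a WNT target, Ptk7, a receptor of planar cell polarity, Zic2, and the domains near Pou5f1, Dusp4 and Dusp6. Clustered regions with SOX letters were called by SOX2 in WT CHIR in 55.6% of cases, against 33.1% of those without (45.3% and 22.7% of the other regions). β-catenin was called in CdxKO at 82.1% of the clustered regions that had SOX2 in WT CHIR and at 62.3% of those that did not, and in T/BraKO at 92.8% and 76.7%. The other regions had nearly the same shares in CdxKO (81.0% and 63.5%) and lower ones in T/BraKO (89.0% and 66.7%).

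At the Hox domains, SOX2 was called at 16, 17 and 27 of the 40 regions in WT CHIR, at 8, 14 and 8 in noCHIR, at 13, 12 and 13 in CdxKO and at 17, 21 and 26 in T/BraKO. WT CHIR libraries were thus all above the noCHIR and CdxKO libraries there. With the complete lists, at least 2 of 3 libraries called 33 regions in WT CHIR, 25 in noCHIR, 22 in CdxKO and 34 in T/BraKO. At Hoxb9/Hoxb8 the counts of 6 regions were 4, 4 and 5 in WT CHIR, 1, 1 and 1 in noCHIR, 2, 2 and 1 in CdxKO and 3, 5 and 5 in T/BraKO. When the complete lists were used, the mean difference between CHIR and noCHIR at this domain was 0.33 instead of 3.33 regions. At Hoxc4, SOX2 was called at 0, 2 and 4 of 6 regions in WT CHIR and at 0 in all 6 libraries of noCHIR and CdxKO. At Fgf8 the counts of 4 regions were 2, 1 and 3 in WT CHIR, 0, 0 and 0 in noCHIR, 2, 1 and 2 in CdxKO and 0, 0 and 3 in T/BraKO.

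The direction of the SOX2 comparisons over single domains depended on how much of each list was used. Among the best peaks, counts did not overlap between WT CHIR and noCHIR in 19 dense domains, 9 higher with CHIR (1.02% of all domains) and 10 higher without (2.08%). Between WT and CdxKO, 4 domains were higher in WT (0.333% of all domains) and 10 in CdxKO (2.33%), and between WT and T/BraKO 0 were higher in WT (0.197%) and 10 in T/BraKO (1.39%). From the complete lists, 19 domains were higher with CHIR and 3 without (5.38% of all domains over both directions). Between WT and CdxKO, 11 were higher in WT and 3 in CdxKO (2.58%). Between WT and T/BraKO, 10 were higher in WT and 1 in T/BraKO (2.81%). As for β-catenin, the shares over all domains are set mostly by domains of 1 region. Every adjusted exact p was again 1. The widest gap among the best peaks was Hoxb9/Hoxb8, with a mean of 4.33 regions in WT CHIR, 1.00 in noCHIR and 1.67 in CdxKO. Lower in WT CHIR than in CdxKO were Tcf7l1 (1.00 against 3.33) and, with an equal gap, 1 other domain. The domain near Irx3 was lower in WT than in T/BraKO (1.33 against 3.33), and the domain near Pim1 was lower with CHIR than without (1.33 against 3.33), in a tie with 1 other domain. In the complete lists, the WT CHIR value was lower by 0.67 regions at Tcf7l1 and by 0.33 near Irx3.

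LEF1 was called at fewer of the regions than the other factors. The 3 WT libraries called 27.7%, 18.1% and 22.7% of clustered regions, the CdxKO libraries 27.7%, 26.1% and 28.6%, and the T/BraKO libraries 16.8%, 23.4% and 22.8%. Among the best peaks, CdxKO lay above T/BraKO, and WT overlapped both. In at least 2 of 3 libraries, 18.0% of clustered and 14.9% of other regions were called in WT (15.2% of all), 24.6% and 19.9% in CdxKO (20.4% of all) and 17.5% and 12.4% in T/BraKO (12.9% of all). Clustered regions with TCF/LEF letters were called by LEF1 in WT in 31.2% of cases, against 9.69% of those without. With the complete LEF1 lists, the CdxKO libraries called 65.3%, 66.7% and 57.6% of all clustered regions. The T/BraKO libraries then called 57.7%, 66.4% and 51.8% and the WT libraries 67.6%, 62.7% and 43.8%, so that all 3 ranges overlapped.

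At least 1 LEF1 region was called in 128 dense domains in WT (47.9%), in 169 in CdxKO (63.3%) and in 134 in T/BraKO (50.2%). Domains of 1 region, which have fewer chances to hold a call, were called in 14.9%, 19.6% and 12.2% of cases, respectively. In WT, T and Axin2 held the most, with 4 LEF1 regions each in at least 2 of 3 libraries. Ptk7 and the domain near Kdm2b had LEF1 at all 3 of their regions. At Axin2 the libraries called 4, 4 and 4 of 7 regions in WT, 5, 3 and 4 in CdxKO and 4, 4 and 3 in T/BraKO. At T they called 4, 4 and 5 of 9 in WT, 2, 1 and 3 in CdxKO and 4, 2 and 1 in T/BraKO. Axin2 thus overlapped in all genotypes, and at T the WT libraries lay above those of CdxKO among the best peaks. In the complete lists, 8 of 9 regions at T were called in at least 2 of 3 libraries in both WT and CdxKO.

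Over all dense domains, LEF1 counts did not overlap between WT and CdxKO in 13, with 2 higher in WT (0.382% of all domains) and 11 in CdxKO (0.987%). Between WT and T/BraKO they did not overlap in 8, with 5 higher in WT (1.22%) and 3 in T/BraKO (0.358%). Every adjusted exact p was 1. With the complete lists, 1 domain was higher in WT and 5 in CdxKO (2.08% of all domains over both directions). Against T/BraKO, 3 were higher in WT and 2 in T/BraKO. Of the domains in these complete-list counts, 0 were among the 13 or the 8 in the same direction. The widest gaps among the best peaks were T, higher in WT than in CdxKO (4.33 against 2.00), the domain near Dusp6, lower in WT than in CdxKO (0.33 against 2.67), and the domain near Cpa6, higher in WT than in T/BraKO (2.00 against 0.33). The domain near Kcnj12 had 0 LEF1 regions in the 3 WT libraries and a mean of 1.33 in T/BraKO. These differences, WT minus mutant, became 0.33 at T, -1 near Dusp6, 0.33 near Cpa6 and -0.67 near Kcnj12 with the complete lists.

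Regions with LEF1 in WT were called more often by β-catenin in the mutants than those without. Of the clustered regions with LEF1 in WT, 94.8% were called by β-catenin in CdxKO and 97.7% in T/BraKO, against 63.9% and 79.2% of those without LEF1. Among the other regions the shares with and without LEF1 were 93.6% and 63.5% in CdxKO, close to those of clustered regions, and 91.1% and 69.3% in T/BraKO. TCF/LEF letters alone went with shares of 80.5% in CdxKO and 88.9% in T/BraKO, against 62.6% and 78.6% without them (other regions 75.3% and 78.1% with, 62.4% and 68.2% without). In WT CHIR, 103 clustered regions (10.8%) were called for all 3 factors, against 6.51% of the others. Both a SOX2 and a LEF1 region were present in 103 dense domains, SOX2 alone in 97, LEF1 alone in 25 and neither in 42. A domain with more regions has more chances to hold either factor. Counted by region, 43.5% of clustered and 34.4% of other regions had SOX2 or LEF1 (35.3% of all).

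The same rule was then run on the lists of other groups, where the number of regions called in at least 2 of 3 lists differed. It was 10101 for β-catenin in CdxKO and 12687 in T/BraKO, 5547 for SOX2 in WT CHIR and 15076 in noCHIR, and 1892 for LEF1 in WT. The numbers of dense domains had the same order as these totals, whose part in them was not tested. In CdxKO the rule gave 275 dense β-catenin domains, of which 144 overlapped a WT dense domain (52.4% of the CdxKO set; 53.9% of the WT set was overlapped). In T/BraKO it gave 467, of which 183 did (39.2% of that set and 68.5% of the WT set). SOX2 gave 95 dense domains in WT CHIR and 562 in noCHIR, with 54 and 87 overlaps (56.8% and 15.5% of these sets, 20.2% and 32.6% of the WT β-catenin set). LEF1 in WT gave 11 dense domains, of which 10 overlapped (90.9% of that set and 3.75% of the WT β-catenin set).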

How the data were processed

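ChIP–seq of β-catenin, SOX2 and LEF1 gave 30 libraries in 10 groups of 3, which the labels call biological replicates. Single-end reads went through nf-core chipseq, with which the authors trimmed them (Trim Galore), aligned them (BWA), filtered them (SAMtools, BAMTools and picard) and called narrow peaks (MACS, default q). The submitters' processing notes name MACS2 and mm10. The input used as control for each list is not given in the sources used here. In the deposited lists, the ratio is a fold enrichment of the summit over MACS's local background. Each summit's −log10 p, −log10 q and position from the peak start were deposited with it. The deposited score column was not used.

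Ranks used −log10 q, with ties broken by −log10 p and fold enrichment. Because lists held 26940 to 1008922 peaks, the 20000 best were used, and depth remained unknown. An overlap of 1 bp counted as called. Genes, promoters and sequences came from GRCm38.p6 and GENCODE M21 basic. Letters were searched within 100 bp of the WT summit, and within the same windows moved by 1000 bp. The members, gene lists and tests were chosen with earlier results of these data known. Domains named were the 10 with most regions, those at a listed gene (within 10000 bp) with 4 or more regions or with T, a Cdx or a Hox gene, the 3 with the lowest share called in each mutant, and the widest gap in each direction of each test. Some domains that meet this rule are not reported here, and the totals include them. The dense domains without a listed gene are given as a total. The 17 domains with SOX2 and the pair with LEF1 at all their regions, and the example genes among them, were chosen after their values were seen.

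The 6 comparisons of regions called per domain used two-sided exact permutation tests over 20 assignments (smallest p 0.1) with Benjamini-Hochberg adjustment over 8106 domains, without covariates. The test was checked on simulated data. Shares over regions have no p, since regions are not replicates. Alternatives were other numbers of best peaks, complete lists, other gaps, stricter membership, another overlap, a replicate block and leaving out each library. Python 3.11.15 was used with NumPy 2.4.6, pandas 2.3.3 and Matplotlib 3.10.9.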

Additional observations from a re-analysis of the deposited data

How the results depend on the processing

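The number of dense domains, 267, followed the settings of the rule. It was 152 with the 10000 best peaks, 55 with the 5000 best, 126 with a stitching gap of 5000 bp, 422 with a gap of 25000 bp, 88 with regions called in 3 of 3 lists and 87 when 4 or more regions were required. Leaving out WT β-catenin replicate 1, 2 or 3, with regions called in both other lists, gave 119, 142 and 167.

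The difference between clustered and other regions in the share called was 1.46 percentage points for β-catenin in CdxKO. It was 3.62 with complete lists, -1.65 when only regions in 3 of 3 WT lists were compared, and 2.05 to 4.37 when a library was left out (4.37 without CdxKO replicate 1, 3.85 without replicate 2). In T/BraKO it was 10.0, with 8.52 for complete lists, 12.0 and 7.27 for gaps of 5000 and 25000 bp, 12.1 for 4 or more regions, 7.14 for 3 of 3 WT lists and 9.76 to 11.1 when a library was left out. For SOX2 in WT it was 10.2, and 6.60 to 9.57 when a library was left out (6.60 without replicate 3). For LEF1 in WT it was 3.04, with 8.24 for complete lists and 2.81 to 3.43 when a library was left out. The cause of these shifts was not tested.

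Counts of dense domains whose libraries did not overlap go up by construction when a library is left out. They were 36 for β-catenin (44 to 57; 57 without CdxKO replicate 1), 14 for SOX2 in WT against CdxKO (21 to 55), 10 for WT against T/BraKO (11 to 48) and 19 for CHIR against noCHIR (22 to 53). The highest SOX2 counts, 55, 48 and 53, were those without WT replicate 3. Over all domains the shares were then 7.34%, 5.90% and 7.01%, and for β-catenin without CdxKO replicate 1 the share was 12.2%. For LEF1 they were 13 against CdxKO (20 to 25; 6 with complete lists) and 8 against T/BraKO (13 to 18; 5 with complete lists). The mean SOX2 difference between CHIR and noCHIR near Pim1 was -2 regions and became 1 with complete lists.

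Replicate numbers were not used to pair the libraries in the tests. Correlations of the deviations of same-numbered libraries from their group means lay between -0.0331 and 0.103. For libraries with different numbers they lay between -0.0911 and 0.0352. The highest and the lowest value were both in the β-catenin comparison of the mutants. With the replicate number as a block, domains that moved one way in all 3 numbers were counted instead. There were 42 such dense domains for β-catenin (against 10.1% of all domains). The 3 SOX2 comparisons in the above order had 30, 22 and 27 (2.99%, 1.95% and 3.33% of all domains). For LEF1 there were 19 against CdxKO (1.52% of all domains) and 16 against T/BraKO. These shares are set mostly by domains of 1 region.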
